A study of Mus musculus with 10 samples.

Results

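The genes of T cells and natural killer (NK) cells were followed in the liver of mice given VEGF by gene transfer. The group holds 37 genes, chosen by name because they encode the receptors, signalling proteins, granule proteins and transcription factors by which these lymphocytes are usually recognised, out of 24011 transcripts with a gene symbol in the deposited table. All 37 were found in the table, each as 1 transcript, and 32 of them had a mean over 0.5 RPKM (reads for each kilobase of a transcript as a share of the library's tags) in at least 1 group of mice and entered the test. The other 5, Cd4, Ctla4, Fasl, Klrg1 and Ncr1, stayed below that level and are described by their reads.

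T cells recognise antigen through a receptor whose CD3 chains carry the signal into the cell, while the co-receptors CD4 and CD8 bind the molecules that present the antigen. CD8 T cells and NK cells kill target cells by releasing granules that hold perforin, which opens the membrane, and granzymes, the proteases that enter through it, and both secrete interferon-gamma, which switches on antiviral and antigen presentation genes in the neighbouring cells. The healthy mouse liver holds resident NK and T cells, and T cells of the CD8 class are recruited to it when hepatocytes are infected by adenovirus.

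Both groups received an adenovirus of serotype 5 by the tail vein. The 5 AdVEGF mice were given a vector from which the CMV promoter, active in most cell types and not in a chosen one, drives VEGF-A165, and the 5 AdCMV mice a vector with this promoter and no transgene, so that every animal carried vector and no untreated mouse was analysed here. The animals were male C57BL/6 mice of 8 to 12 weeks, and the liver was taken on day 6 after the injection. RNA of the whole tissue was depleted of ribosomal RNA and sequenced, with 1 library for each mouse, labelled as biological replicates.

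The libraries held 5758955 to 13494151 mapped tags in the AdCMV group and 5596530 to 8134025 in the AdVEGF group, so that 3 reads on a transcript of 1 kb stood for 0.222 to 0.521 and for 0.369 to 0.536 RPKM. The Mup genes encode urinary proteins made by hepatocytes. They took 18.0% to 50.5% of the reads summed over transcripts in AdCMV livers and 7.84% to 28.6% in AdVEGF livers. This sum was above the mapped tags in each library (10743866 against 9429239 in AdCMV mouse 4), so that some reads were counted more than once. How far this changed the Mup share was not tested. RPKM is a share of the library, and the median log2 fold change over the 13933 genes tested was 0.38 in the deposited values and -0.0044 after median-ratio scaling, in which each library is divided by the median of its ratios to a reference library. Fold changes below are those of the deposited RPKM on the log2(RPKM + 0.1) scale, AdVEGF over AdCMV, with the standard error of limma's fit and its Benjamini-Hochberg adjusted p over all genes tested; they are to be read against the general shift of 0.38. A gene was called at an adjusted p under 0.05 with a log2 fold change over 1 or under -1. In RNA of whole tissue, fewer cells of a type and less RNA per cell cannot be told apart.

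The sequence before the start of 4 genes to which the results return is shown first, as these genes stand for the receptor, the granules and the secreted cytokine. The windows are the 250 bases upstream of the start in RefSeq on GRCm38.p6, written from 5′ to 3′ on the strand of the gene, at chr9:45009612-45009861 (minus strand) for Cd3e, chr14:56262335-56262584 (minus strand) for Gzmb, chr10:61297586-61297835 (plus strand) for Prf1 and chr10:118440796-118441045 (plus strand) for Ifng. Capitals mark every match to 4 short motifs searched on both strands, AGGAAG of the ETS factors, TGTGGT of the RUNX factors, GTGTGA of the T-box factors and the TATA motif TATAAA. No marked match shares a base with another.
Cd3e: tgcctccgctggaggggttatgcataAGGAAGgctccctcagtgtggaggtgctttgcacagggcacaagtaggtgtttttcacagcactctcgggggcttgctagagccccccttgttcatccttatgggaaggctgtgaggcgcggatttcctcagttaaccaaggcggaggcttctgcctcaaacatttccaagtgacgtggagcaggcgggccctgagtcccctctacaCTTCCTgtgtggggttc
Gzmb: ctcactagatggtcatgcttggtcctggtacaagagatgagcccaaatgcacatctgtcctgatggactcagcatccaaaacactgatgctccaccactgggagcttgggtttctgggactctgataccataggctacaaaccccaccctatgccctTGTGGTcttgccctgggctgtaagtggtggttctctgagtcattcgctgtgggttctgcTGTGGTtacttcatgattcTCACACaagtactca
Prf1: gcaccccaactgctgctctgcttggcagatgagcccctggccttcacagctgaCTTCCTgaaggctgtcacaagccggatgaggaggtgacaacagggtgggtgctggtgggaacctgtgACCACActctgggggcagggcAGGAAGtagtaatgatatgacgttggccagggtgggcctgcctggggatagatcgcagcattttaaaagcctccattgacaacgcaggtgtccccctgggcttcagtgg
Ifng: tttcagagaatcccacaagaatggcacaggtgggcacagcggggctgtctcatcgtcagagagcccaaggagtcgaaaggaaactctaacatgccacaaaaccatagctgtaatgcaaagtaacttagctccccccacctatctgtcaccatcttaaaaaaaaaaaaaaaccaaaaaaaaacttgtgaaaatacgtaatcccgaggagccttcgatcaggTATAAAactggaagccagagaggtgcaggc

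The Cd3e window held the ETS motif at positions -224 and -17 from the start. Upstream of Gzmb stood the RUNX motif at -93 and -34 and the T-box motif at -15, and upstream of Prf1 the ETS motif at -197 and -109 and the RUNX motif at -130. In the Ifng window the single match was the TATA motif at -30. Windows were found for 26 of the 37 genes, and 16 of these 26 (61.5%) held the ETS motif, against 29.5% of the 32851 promoter windows of the table. The RUNX motif was in 9 of 26 (34.6%) against 14.0% of all windows, the T-box motif in 6 (23.1%) against 12.3%, and the TATA motif in 2 (7.69%) against 12.4%. The 26 genes had 31 windows, and a gene was counted if any of its windows held the motif. The share of all windows counts each window singly, so that the 2 shares are not alike and the count by gene tends to be higher. The motifs were picked after the windows had been looked at, and a match describes the letters and not a bound site. No window was found for Cd4, Cd8b1, Klrd1, Icos, Cd28, Cd2, Thy1, Lag3, Il2rb, Cd6 and Klrg1.

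Of the 37 genes, 10 were lower in the AdVEGF mice by the test and 0 were higher. The fall was called for Cd3e, Cd3g, Cd8a, Cd6, Pdcd1, Gzmb, Gzmk, Prf1, Nkg7 and Ifng, whereas the signalling genes, the cytokine receptors, the NK receptors and the transcription factors held no call. The 10 calls are 31.2% of the 32 genes tested, beside 1.54% of all genes tested that were called lower and 13% that were called higher. By limma, 1 of the 32 was higher at an unadjusted p under 0.05, and voom on the recovered reads called 10 lower and 0 higher. The log2 fold change was negative in 31 of the 37 genes, and its median over all 37 was -0.53, beside 0.32 over the 18554 transcripts with any read. After median-ratio scaling 13 were called lower, with Cd2, Cd28 and Cd3d added, where 3.14% of all genes were lower and 7.77% higher, and the median over the 37 genes was -0.80, beside 0.011.

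The filter on low values bears on these counts. Among the 32 genes tested, 23 were over 0.5 RPKM in both groups, and Cd3e, Cd3g, Cd8a, Gzmb and Nkg7 are the 5 of them that were called. A further 8 passed through the AdCMV group alone, 5 of them with a call (Cd6, Pdcd1, Gzmk, Prf1 and Ifng), and 1, Il7r, passed through the AdVEGF group alone. Genes that pass through the AdCMV group alone are selected for higher values there, which favours lower calls among them in any list. The shares of all genes called within these sets were not counted, so that these counts are a description. When all transcripts with any read were tested without a filter, 9 of the 37 genes were called lower, without Cd3g, beside 1.05% of all, and 0 were called higher, beside 10.4% of all.

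**Figure D1:**
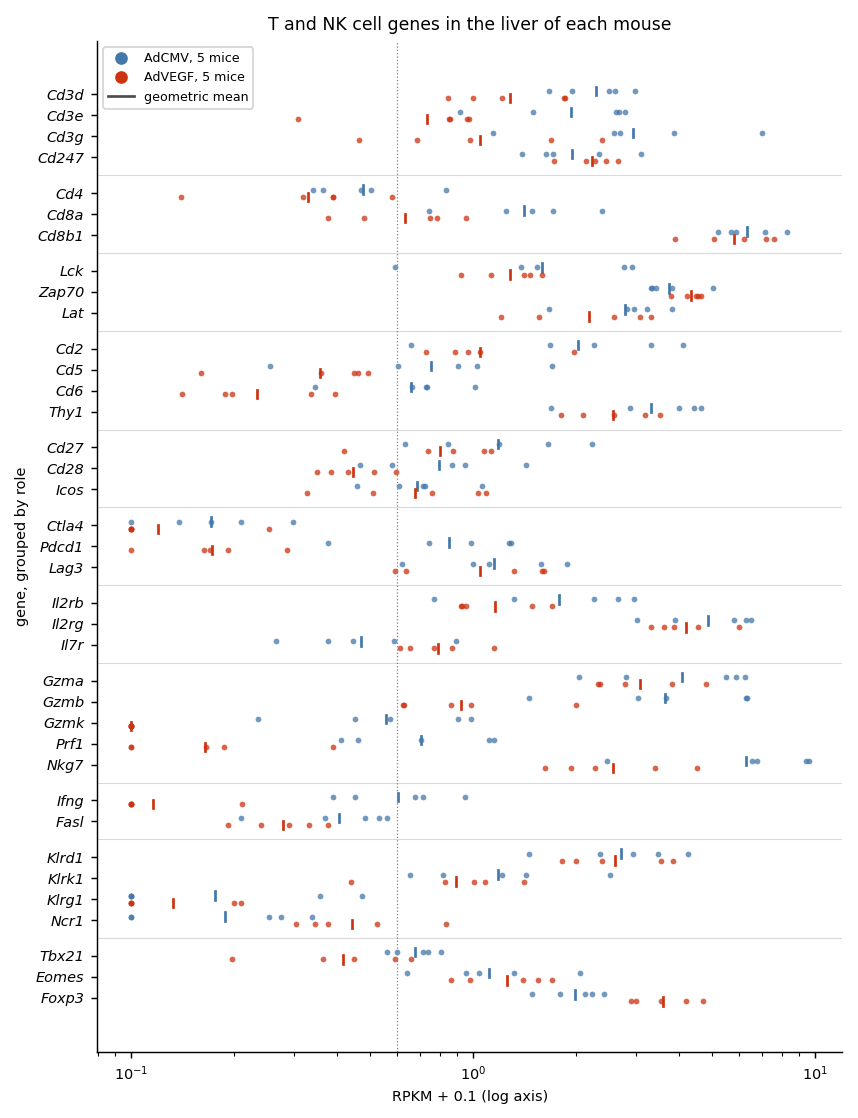
RPKM + 0.1 (log axis) of the 37 genes, grouped by role, in each of the 5 AdCMV mice (blue) and 5 AdVEGF mice (red), with the geometric mean of each group as a bar and the level of 0.5 RPKM used in the filter as a dotted line. The red points lie to the left of all blue points for Pdcd1, Gzmk, Prf1 and Ifng, and to the right of them for Foxp3.

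The chains of the T cell receptor complex were lower in the AdVEGF mice for Cd3e and Cd3g. Cd3e, a signalling chain present in every mature T cell, measured 2.52, 1.40, 2.58, 0.818 and 2.68 RPKM in AdCMV mice 1 to 5 and 0.749, 0.755, 0.877, 0.862 and 0.208 RPKM in AdVEGF mice 1 to 5. The groups overlapped through AdCMV mouse 4, below which 3 of the 5 AdVEGF mice lay. Cd3e fell by 1.40 ± 0.39 (SE) on the log2 scale (adjusted p = 0.0157). Cd3g measured 2.59, 2.49, 6.88, 1.05 and 3.77 RPKM in the AdCMV mice and 0.878, 1.59, 2.29, 0.364 and 0.586 RPKM in the AdVEGF mice. Again AdCMV mouse 4 lay within the range of the other group, and AdCMV mouse 3 was well above all others. Cd3g fell by 1.48 ± 0.47 (adjusted p = 0.0291). Cd3d, the third of the neighbouring CD3 genes, had 2.40, 1.57, 2.88, 1.84 and 2.49 RPKM in the AdCMV and 1.75, 1.12, 1.76, 0.743 and 0.898 RPKM in the AdVEGF mice. For Cd3d, 3 of the 5 AdVEGF mice lay below the AdCMV group, and the log2 fold change was -0.83 ± 0.29 (adjusted p = 0.0444), under the fold required for a call. Cd247, the zeta chain, which NK cells also use, stood at 1.53, 1.62, 3.00, 1.29 and 2.24 RPKM in the AdCMV and 2.04, 2.56, 2.17, 1.63 and 2.34 RPKM in the AdVEGF mice. All AdVEGF values of Cd247 were within the AdCMV range (log2 fold change 0.19 ± 0.26, adjusted p = 0.603). Its transcript overlaps that of Pou2f1 on the other strand by 5999 bases, and Pou2f1 had 1.61 ± 0.57 RPKM (SD, n = 5) in the AdCMV and 2.15 ± 0.36 RPKM (SD, n = 5) in the AdVEGF mice. Whether strand was used in the counting is not given in the sources used here, so that reads of the pair cannot be told apart.

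Of the co-receptors, Cd8a was called and Cd8b1 was not, although both encode chains of the same CD8 dimer and lie 35976 bases apart on chromosome 6. Cd8a measured 1.15, 1.61, 2.28, 0.645 and 1.39 RPKM in the AdCMV mice and 0.855, 0.647, 0.687, 0.276 and 0.381 RPKM in the AdVEGF mice, with 2 AdVEGF mice below all AdCMV mice, and fell by 1.16 ± 0.37 (adjusted p = 0.0292). Cd8b1 measured 5.10, 5.79, 8.20, 5.57 and 7.03 RPKM and 7.46, 4.97, 6.09, 7.07 and 3.80 RPKM. For Cd8b1 too, 2 AdVEGF mice were below all AdCMV mice, and the log2 fold change was -0.13 ± 0.23 (adjusted p = 0.696). After median-ratio scaling it was -0.52 ± 0.15 (adjusted p = 0.0282), with every AdVEGF mouse below every AdCMV mouse and still under the fold of a call. The level of Cd8b1 per length was above that of Cd8a in every mouse. The difference between the fold changes of these 2 genes was not tested. Cd4 was below the level tested, with 9, 11, 9, 7 and 13 reads in the AdCMV libraries and 5, 5, 5, 1 and 10 in the AdVEGF libraries, 49 and 26 reads in all.

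The largest group of calls was that of the cytotoxic granules, in which 4 of 5 genes fell. Gzmb, the main protease of activated killer cells, measured 2.94, 3.58, 6.22, 1.36 and 6.16 RPKM in the AdCMV mice and 0.884, 0.764, 1.90, 0.524 and 0.527 RPKM in the AdVEGF mice. Only AdVEGF mouse 3 reached above the lowest AdCMV mouse. Gzmb fell by 1.98 ± 0.40 (adjusted p = 0.00176), and its reads per mapped tag were 4.38 times as many in the AdCMV libraries (95% counting interval 3.14 to 6.27). Prf1, which encodes perforin, measured 0.607, 0.362, 1.05, 0.311 and 1.02 RPKM in the AdCMV mice and 0.087, 0.066, 0, 0 and 0.29 RPKM in the AdVEGF mice. Every AdVEGF mouse was below every AdCMV mouse, although AdVEGF mouse 5 with 4 reads and AdCMV mouse 4 with 6 reads were close. Prf1 fell by 2.10 ± 0.51 (adjusted p = 0.00714) on 54 reads in the AdCMV and 6 in the AdVEGF group, a ratio per mapped tag of 6.88 (counting interval 2.97 to 19.6).

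Gzmk, a granzyme of T and NK cells with trypsin-like activity, had 0.351, 0.471, 0.807, 0.135 and 0.884 RPKM in the AdCMV mice and 0 RPKM in each of the 5 AdVEGF mice. This is 17 reads against 0. The counting interval of the ratio of reads per mapped tag starts at 3.16, so that Gzmk was at least 3.16-fold lower in the AdVEGF group as far as counting error goes, and set against a floor of 3 reads over the whole group the ratio was 4.33 (adjusted p of the fit 0.00275). Nkg7, a protein of the granule membrane, measured 6.67, 6.43, 9.28, 2.37 and 9.47 RPKM in the AdCMV mice and 3.31, 2.17, 4.43, 1.52 and 1.84 RPKM in the AdVEGF mice. Its groups overlapped through AdCMV mouse 4, and it fell by 1.29 ± 0.36 (adjusted p = 0.0147). Gzma, the tryptase granzyme of NK cells and CD8 T cells, was the member of the group with no call. Its values were 2.70, 5.79, 6.12, 1.95 and 5.38 RPKM in the AdCMV and 4.70, 3.71, 2.26, 2.68 and 2.22 RPKM in the AdVEGF mice, all of the latter within the range of the former, and the log2 fold change was -0.41 ± 0.32 (adjusted p = 0.355). Gzma and Gzmk are neighbours on chromosome 13, 70893 bases apart.

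Ifng, the gene of interferon-gamma, was measured on few reads and was close to absent from the AdVEGF libraries. It had 0.575, 0.617, 0.845, 0.353 and 0.289 RPKM in the AdCMV mice, from 29 reads in all, and 0, 0.112, 0, 0 and 0 RPKM in the AdVEGF mice, from 1 read. The groups did not overlap, and Ifng fell by 2.38 ± 0.49 on the log2 scale (adjusted p = 0.00208). The ratio of reads per mapped tag was 22.2 with a counting interval of 3.68 to 906, so that its size is poorly known. Fasl, the death ligand of killer cells, was below the level tested, with 6, 10, 7, 2 and 3 reads in the AdCMV mice and 1, 2, 3, 3 and 3 in the AdVEGF mice, 28 and 12 in all.

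Among the inhibitory receptors Pdcd1 fell. Pdcd1, the PD-1 receptor that T cells display after activation, measured 0.646, 0.886, 1.19, 0.276 and 1.17 RPKM in the AdCMV mice and 0.093, 0.07, 0.186, 0.064 and 0 RPKM in the AdVEGF mice. No AdVEGF mouse reached the lowest AdCMV mouse, and it fell by 2.31 ± 0.47 (adjusted p = 0.00179). It rested on 68 and 5 reads, a ratio per mapped tag of 10.4 (counting interval 4.25 to 33.1). Pdcd1, Gzmk, Prf1 and Ifng were the 4 genes of the 37 with all AdVEGF mice below all AdCMV mice. All 4 passed the filter through the AdCMV group alone, where they are high, so that the share of all genes tested with this pattern, 1.29%, and of all transcripts with any read, 1.05%, stand beside them as a description. Lag3, another receptor that restrains T cells and binds MHC class II, had 0.901, 0.521, 1.78, 1.01 and 1.48 RPKM in the AdCMV and 1.52, 1.22, 0.538, 0.493 and 1.49 RPKM in the AdVEGF mice. The groups overlapped widely (log2 fold change -0.14 ± 0.38, adjusted p = 0.809). Ctla4 had 1, 1, 3, 2 and 0 reads in the AdCMV and 0, 0, 0, 0 and 2 reads in the AdVEGF mice, too few for a comparison.

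Cd6 was the surface glycoprotein with a call. It encodes a receptor of T cells that binds ALCAM, and measured 0.915, 0.245, 0.631, 0.562 and 0.633 RPKM in the AdCMV mice and 0.236, 0.089, 0.296, 0.041 and 0.098 RPKM in the AdVEGF mice. AdVEGF mouse 3 alone lay above the lowest AdCMV mouse, number 2, and it fell by 1.49 ± 0.45 (adjusted p = 0.0246). Cd5, its neighbour on chromosome 19 and a related scavenger receptor protein, had 0.806, 0.505, 0.926, 0.155 and 1.60 RPKM in the AdCMV and 0.26, 0.393, 0.348, 0.06 and 0.361 RPKM in the AdVEGF mice. AdCMV mouse 4 lay within the AdVEGF range of Cd5 (log2 fold change -1.08 ± 0.50, adjusted p = 0.123). Cd2, an adhesion molecule of T and NK cells, had 1.58, 2.15, 4.02, 0.56 and 3.21 RPKM in the AdCMV and 1.88, 0.947, 0.629, 0.865 and 0.784 RPKM in the AdVEGF mice (-0.94 ± 0.42, adjusted p = 0.111). The spread of Cd2 among the AdCMV mice spanned that of the other group. Thy1, the Thy-1 antigen, had 3.91, 2.79, 4.55, 1.59 and 4.32 RPKM in the AdCMV and 3.09, 1.71, 3.41, 1.99 and 2.49 RPKM in the AdVEGF mice, all of the latter within the range of the former (-0.38 ± 0.29, adjusted p = 0.352).

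The signalling genes, costimulatory receptors and cytokine receptors held no call in the deposited values. The kinase gene Lck had 1.28, 1.44, 2.82, 0.492 and 2.66 RPKM in the AdCMV and 0.825, 1.37, 1.49, 1.31 and 1.03 RPKM in the AdVEGF mice (log2 fold change -0.31 ± 0.38). The adaptor gene Lat had 2.72, 3.71, 3.12, 1.56 and 2.85 RPKM in the AdCMV and 3.21, 2.98, 2.49, 1.11 and 1.46 RPKM in the AdVEGF mice (-0.35 ± 0.31). For both genes AdCMV mouse 4 was the lowest of its group. The row for Zap70, a kinase that binds the zeta chain, had 3.72, 3.22, 3.23, 3.34 and 4.94 RPKM in the AdCMV and 4.40, 4.13, 4.55, 3.68 and 4.45 RPKM in the AdVEGF mice (0.21 ± 0.20). This row is a short transcript, NM_001289612, of 1335 bases at chr1:36835829-36839665. Whether its level stands for the transcript of the whole kinase was not tested. All 3 signalling genes overlapped between the groups.

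Among the costimulatory receptors, Cd28, which gives the second signal of T cell activation, measured 0.769, 0.481, 1.32, 0.369 and 0.846 RPKM in the AdCMV and 0.33, 0.25, 0.497, 0.285 and 0.414 RPKM in the AdVEGF mice, a log2 fold change of -0.83 ± 0.38 (adjusted p = 0.115). Here 3 of the 5 AdVEGF mice were below the AdCMV group. Cd27, a receptor of the TNF receptor family, measured 1.09, 0.747, 1.55, 0.534 and 2.12 RPKM in the AdCMV and 0.641, 0.775, 1.03, 0.974 and 0.321 RPKM in the AdVEGF mice (-0.57 ± 0.38, adjusted p = 0.282). Icos, a receptor that T cells display after activation, measured 0.51, 0.616, 0.625, 0.359 and 0.963 RPKM in the AdCMV and 0.658, 0.995, 0.936, 0.227 and 0.412 RPKM in the AdVEGF mice (-0.020 ± 0.40, adjusted p = 0.974). For Cd27 the AdVEGF mice lay towards or below the lower end of the AdCMV range and for Icos on both sides of it. The transcript of Cd27 overlaps that of E130112N10Rik on the other strand by 4405 bases. Il2rb, the beta chain shared by the receptors of interleukins 2 and 15, had 2.16, 1.22, 2.55, 0.672 and 2.85 RPKM in the AdCMV and 1.39, 0.853, 1.60, 0.824 and 0.83 RPKM in the AdVEGF mice (-0.62 ± 0.36). Il2rg, the common gamma chain, had 5.69, 3.79, 6.18, 2.91 and 6.39 RPKM in the AdCMV and 3.78, 4.45, 5.91, 3.22 and 3.52 RPKM in the AdVEGF mice (-0.22 ± 0.25). In both, all AdVEGF mice were within the AdCMV range. Il7r, the interleukin-7 receptor of naive and memory T cells, measured 0.345, 0.278, 0.793, 0.166 and 0.488 RPKM in the AdCMV mice and 0.556, 1.05, 0.67, 0.768 and 0.511 RPKM in the AdVEGF mice. Its log2 fold change was 0.74 ± 0.39 (adjusted p = 0.164), and each AdVEGF mouse was above 4 of the 5 AdCMV mice.

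The receptors of NK cells held no call. Klrd1, the CD94 chain, had 2.25, 3.37, 4.14, 1.36 and 2.83 RPKM in the AdCMV and 2.28, 3.45, 3.75, 1.72 and 1.91 RPKM in the AdVEGF mice (log2 fold change -0.064 ± 0.30). Klrk1, the activating receptor NKG2D, had 0.72, 1.11, 2.41, 0.553 and 1.33 RPKM in the AdCMV and 1.31, 0.908, 0.986, 0.339 and 0.729 RPKM in the AdVEGF mice (-0.41 ± 0.40). Both ranges overlapped widely. Ncr1, the NKp46 receptor by which NK cells and type 1 innate lymphoid cells are recognised, was below the level tested, with 0, 3, 2, 0 and 2 reads in the AdCMV and 6, 3, 2, 5 and 2 reads in the AdVEGF mice. The reads were 7 and 18 in all, a ratio of 0.297 per mapped tag, AdCMV over AdVEGF, with a counting interval of 0.105 to 0.746 that leaves out the spread between mice. Klrg1, an inhibitory receptor, had 0, 0, 4, 0 and 2 reads in the AdCMV and 0, 1, 0, 0 and 1 reads in the AdVEGF mice.

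The transcription factors held no call either. Tbx21, which drives the type 1 programme of T and NK cells, measured 0.706, 0.641, 0.499, 0.459 and 0.614 RPKM in the AdCMV mice and 0.56, 0.265, 0.492, 0.097 and 0.35 RPKM in the AdVEGF mice, with a log2 fold change of -0.70 ± 0.40 (adjusted p = 0.199). Eomes, its relative in CD8 T cells and NK cells, had 0.857, 0.54, 1.95, 0.944 and 1.22 RPKM in the AdCMV and 1.30, 1.60, 1.45, 0.763 and 0.882 RPKM in the AdVEGF mice, all of the latter within the range of the former (0.17 ± 0.33). Foxp3, the factor of regulatory T cells, had 2.03, 2.32, 1.69, 1.39 and 2.13 RPKM in the AdCMV mice and 2.91, 3.44, 4.08, 4.62 and 2.79 RPKM in the AdVEGF mice. Every AdVEGF mouse was above every AdCMV mouse, as in 14.3% of all genes tested, and the log2 fold change was 0.86 ± 0.23 (adjusted p = 0.0126), below the fold of a call. After median-ratio scaling it was 0.47 ± 0.20 (adjusted p = 0.102) and the groups overlapped. The row of Foxp3 shares 1434 bases with Ccdc22 on the other strand, a gene of most tissues whose level was 4.08 ± 0.90 RPKM (SD, n = 5) in the AdCMV and 7.04 ± 1.01 RPKM (SD, n = 5) in the AdVEGF mice. The Foxp3 row also stood above Cd4, the co-receptor of the cells that express Foxp3, by level per length in every mouse. How much of the Foxp3 value comes from reads of Ccdc22 was not tested.

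**Figure D2:**
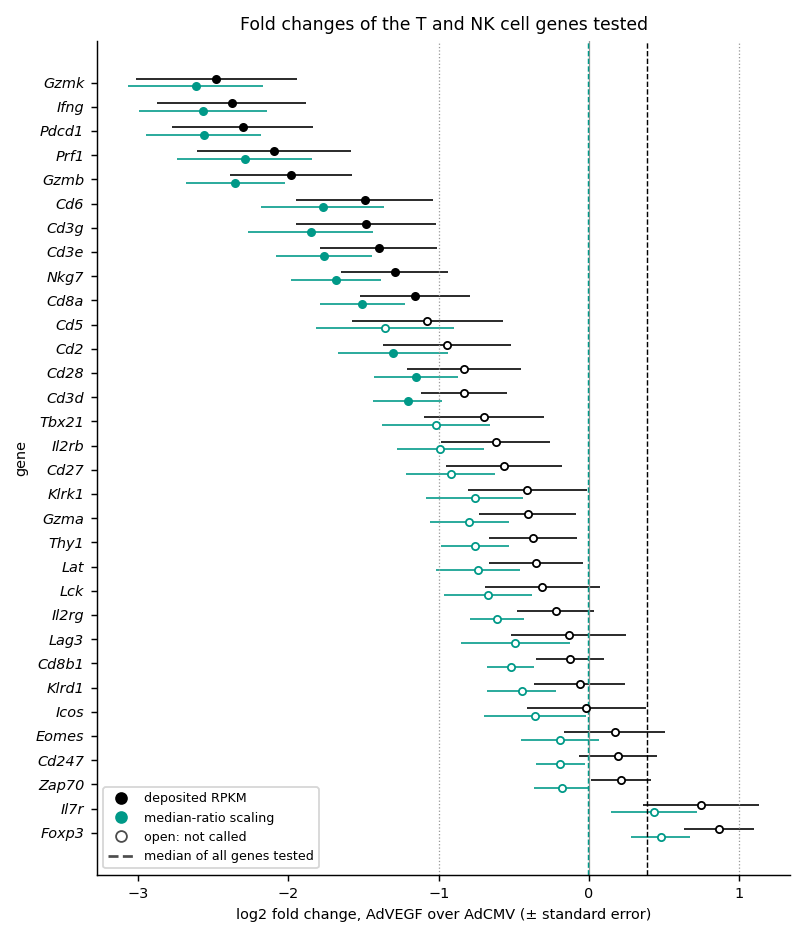
Log2 fold change (AdVEGF over AdCMV) with its standard error for the 32 genes tested, from the deposited RPKM (black) and after median-ratio scaling (green), filled where the gene was called. Dashed lines mark the median of all genes tested, at 0.38 and -0.0044, and dotted lines the fold required for a call; the 10 filled black points all lie on the left.

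Several of the genes are neighbours on the chromosome. The 3 CD3 genes lie together on chromosome 9, in the coordinates of the deposited table (mm9 per the submitters' processing notes) at chr9:44777655-44788514 for Cd3g, chr9:44789869-44795135 for Cd3d and chr9:44806826-44817673 for Cd3e. Of the other pairs within 200000 bases, Cd8a and Cd8b1 (chr6:71323421-71329165 and chr6:71272806-71287445), Cd6 and Cd5 (chr19:10863829-10904548 and chr19:10792633-10813464) and Gzmk and Gzma (chr13:113962082-113971105 and chr13:113884035-113891189) each held 1 called gene and 1 without a call. The pairs Cd4 and Lag3, Klrd1 and Klrk1, and Ctla4 with Cd28 and Icos held none.

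The level of the 37 genes varied among mice of the same group. The median of log2(RPKM + 0.1) over the 37 genes was 0.26, 0.28, 1.04, -0.60 and 0.77 in AdCMV mice 1 to 5 and -0.066, 0.011, 0.051, -0.68 and -0.67 in AdVEGF mice 1 to 5. AdCMV mouse 3 was the highest of its group in 22 of the 37 genes and AdCMV mouse 4 the lowest in 27. Mouse 4 had the largest share of Mup reads (50.5%) and mouse 3 the smallest of the AdCMV group (18.0%). After median-ratio scaling the medians were 0.59, 0.58, 0.76, -0.071 and 0.78 in the AdCMV and -0.26, -0.19, -0.23, -0.89 and -0.67 in the AdVEGF mice, which places AdCMV mouse 4 above all 5 AdVEGF mice. With this scaling 12 of the 37 genes had every AdVEGF mouse below every AdCMV mouse and 0 had the reverse, beside 7.16% and 10.6% of all genes tested.

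**Figure D3:**
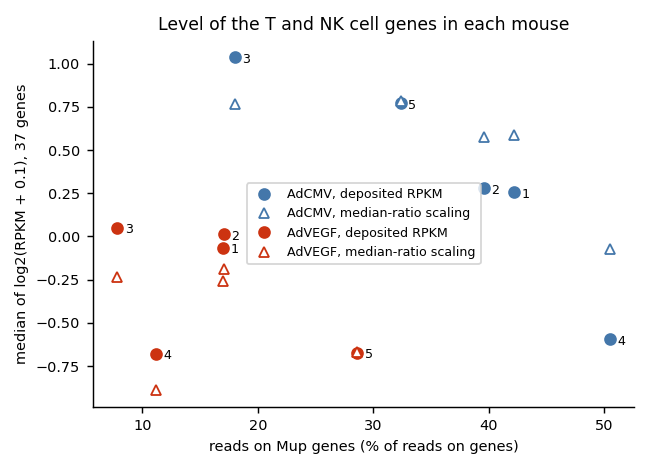
Median of log2(RPKM + 0.1) over the 37 genes in each mouse, against the Mup share of its reads summed over transcripts. Filled circles, with the number of the mouse, show the deposited RPKM and open triangles the values after median-ratio scaling. AdCMV mouse 4, with 50.5% of reads on Mup genes, moves from -0.60 to -0.071 between the scalings and AdCMV mouse 3, with 18.0%, from 1.04 to 0.76.

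The ratio of 2 genes within a mouse depends on the scaling of its library only through the pseudocount of 0.1 RPKM. For 9 pairs the log2 ratio was compared between the groups by an exact permutation test, two-sided, with adjustment over the 9 pairs, in which 5 mice against 5 can reach no p below 0.00794. Cd3e per Ptprc, the CD45 gene of all leukocytes, was -2.40 ± 0.31 (SD, n = 5) in the AdCMV and -3.73 ± 0.68 (SD, n = 5) in the AdVEGF mice, a difference of -1.33 (exact permutation test, adjusted p = 0.0179), lower in each of the 5 AdVEGF mice than in any AdCMV mouse. With a pseudocount of 1 RPKM it was -0.72 (exact permutation test, adjusted p = 0.0476). Ptprc itself had 4.80 to 17.6 RPKM and 6.50 to 13.4 RPKM, with a log2 fold change of -0.074 ± 0.31. Since Cd3e was already called lower at -1.40, this ratio largely repeats the fall of Cd3e in the deposited values. Cd3e per Cd79b, a chain of the B cell receptor, was 1.75 ± 1.14 and -2.01 ± 0.47, a difference of -3.76 (exact permutation test, adjusted p = 0.0179), with no overlap, and the difference was -2.18 with a pseudocount of 1 RPKM. Cd79b had the largest rise of the 11 B cell genes listed, whose median log2 fold change was 1.18, and was paired with a T cell gene already called; it rose from 0.513 ± 0.26 to 3.15 ± 1.54 RPKM (log2 fold change 2.36 ± 0.37, adjusted p = 0.000185).

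Receptors that T cells share or lack were set against Cd3e in the same way. Cd3e was already called lower at -1.40, so that each such ratio carries its fall. Il7r by itself was not called (0.74 ± 0.39, limma adjusted p = 0.164), and Ncr1 by itself was not tested. Il7r per Cd3e was higher by 2.14 on the log2 scale in the AdVEGF mice and Ncr1 per Cd3e by 2.64, each with no overlap between the groups and an adjusted p of 0.0179 (exact permutation test). Ncr1 was at 0 reads in 2 AdCMV mice, and the difference of Ncr1 per Cd3e was 1.09 with a pseudocount of 1 RPKM and 4.09 with one of 0.01 RPKM, and that of Il7r per Cd3e 1.08 and 2.45. Gzma per Gzmb was 0.17 ± 0.39 in the AdCMV and 1.74 ± 0.85 in the AdVEGF mice, a difference of 1.57 (exact permutation test, adjusted p = 0.0429). Here 4 of 5 AdVEGF mice were above all AdCMV mice, and the difference was 0.98 with a pseudocount of 1 RPKM. Of this pair, Gzmb was already called lower (-1.98) and Gzma was not called (-0.41). Gzmb per Cd8a was 1.37 ± 0.43 and 0.54 ± 0.52, a difference of -0.82 that missed the threshold after adjustment (exact permutation test, adjusted p = 0.0595) and passed it when the libraries were first scaled by median ratios (-0.85, exact permutation test, adjusted p = 0.0476). The other 3 ratios did not pass the test. Cd8a per Cd3e differed by 0.24 (exact permutation test, adjusted p = 0.603), Cd8a per Cd4 by -0.63 (exact permutation test, adjusted p = 0.25) and Il2rb per Il2rg by -0.40 (exact permutation test, adjusted p = 0.122).

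**Figure D4:**
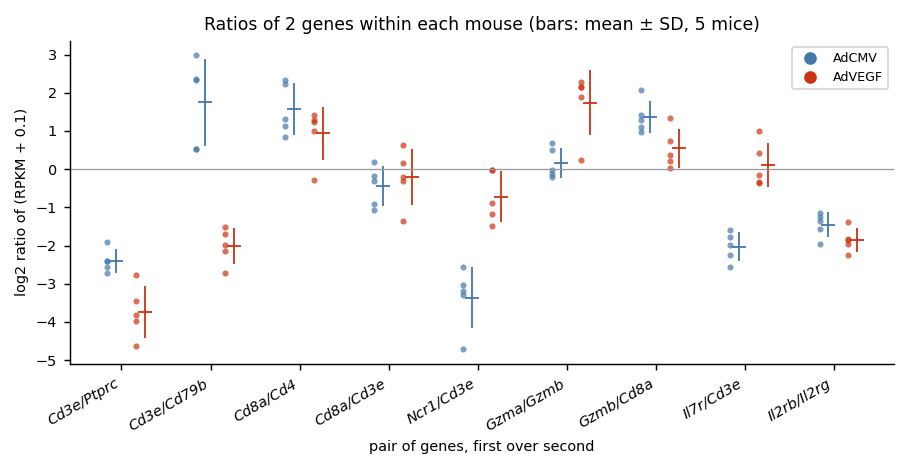
Log2 ratio of (RPKM + 0.1) between 2 genes in each of the 5 AdCMV mice (blue) and 5 AdVEGF mice (red), with mean ± SD beside the points. The groups do not overlap for Cd3e/Ptprc, Cd3e/Cd79b, Ncr1/Cd3e and Il7r/Cd3e, with differences of -1.33, -3.76, 2.64 and 2.14.

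Other genes of these cells were called in both directions. In a list of 62 further T and NK cell genes, 37 were tested, of which 3 were called lower and 2 higher, beside 1.54% and 13% of all genes tested. After median-ratio scaling 7 were called lower and 1 higher, beside 3.14% and 7.77%. The chemokine genes Ccl3 and Ccl4, which activated T and NK cells and macrophages secrete, fell by 2.43 ± 0.43 and 1.75 ± 0.32 (adjusted p = 0.000529 and 0.000629), and Slamf7, a receptor of NK and plasma cells, fell by 1.73 ± 0.41 (adjusted p = 0.00598). Fyn, a kinase of T cells and of many other cells, rose by 2.16 ± 0.22 from 5.15 to 23.1 RPKM (adjusted p = 1.74e-06), and Fcgr3, a receptor of NK cells and myeloid cells, rose by 1.13 ± 0.23 (adjusted p = 0.00149). Fcgr3 was not called after median-ratio scaling. Ccl5, a chemokine stored in T and NK cells, had a log2 fold change of -0.69 ± 0.23 (adjusted p = 0.0357), and it was called after median-ratio scaling, at -1.09.

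Of 27 ligands and cytokines that act on T and NK cells, 16 were tested, with 3 called lower and 2 higher, and 6 lower and 1 higher after median-ratio scaling, beside the same shares of all genes. The 3 that fell in the deposited values were Cxcl9, Cxcl10 and Cxcl11. They belong to the gene family of ligands of the receptor CXCR3, which attract activated T cells, and their protein was not measured here. Cxcl9 had 129 to 224 RPKM in the AdCMV and 4.198 to 39.055 RPKM in the AdVEGF mice, and Cxcl10 54.3 to 119 RPKM and 4.83 to 16.6 RPKM. Neither overlapped between the groups, and they fell by 3.25 ± 0.43 (adjusted p = 2.83e-05) and 2.81 ± 0.30 (adjusted p = 3.16e-06). Cxcl11 fell by 1.48 ± 0.29 (adjusted p = 0.00129). Tgfb1, which encodes a cytokine that restrains T cells among many other roles, rose from 2.18 ± 1.86 to 7.05 ± 2.78 RPKM (1.92 ± 0.42, adjusted p = 0.00301). Icosl, the ligand of Icos, rose by 1.17 ± 0.40 (adjusted p = 0.0435) and was not called after median-ratio scaling. Il15, a growth factor of NK cells, had a log2 fold change of 0.78 ± 0.32 (adjusted p = 0.0826), Cd274, the ligand of PD-1, of -0.30 ± 0.23 (adjusted p = 0.339) and Fas, the receptor of Fas ligand, of -0.72 ± 0.21 (adjusted p = 0.0184), under the fold of a call.

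Most of the genes listed as induced by interferon-gamma were called lower in the AdVEGF mice. Of the 14 such genes tested, 10 fell and 0 rose, by limma and by voom alike, and 0 were higher at an unadjusted p under 0.05. The 4 with the largest changes were Igtp and Iigp1, which encode GTPases that act against intracellular pathogens, Socs1, an inhibitor of cytokine signalling, and Gbp2, a guanylate-binding protein. Igtp was at 139 to 326 RPKM in the AdCMV and 15.5 to 54.0 RPKM in the AdVEGF mice and fell by 2.76 ± 0.32 (adjusted p = 7.44e-06), Iigp1 fell by 2.43 ± 0.29, Socs1 fell by 2.31 ± 0.35 and Gbp2 fell by 1.97 ± 0.33. The summed level of the list was 950 to 1875 RPKM in the AdCMV and 200 to 411 RPKM in the AdVEGF mice. The median log2 fold change of its 14 genes was -1.43, beside 0.38 over all genes tested.

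Lists of markers were followed for the other cells that a liver sample can hold. Of all genes tested 13% were called higher and 1.54% lower, and these shares stand beside each count. Of 12 pan-leukocyte genes none was called in either direction by limma, with 1 higher and 0 lower at an unadjusted p under 0.05, and voom called none. After median-ratio scaling none was called either, but 0 were higher and 3 lower at an unadjusted p under 0.05. Their median log2 fold change was 0.19 in the deposited values and -0.20 after this scaling. B cell genes were called higher in 5 of 8 tested, though in 1 of 8 after median-ratio scaling. Their summed level was 15.0 to 23.4 RPKM in the AdCMV and 23.9 to 38.5 RPKM in the AdVEGF mice, most of it from Fcer2a. Fcer2a, with means of 16.3 and 21.6 RPKM, was not called (log2 fold change 0.40 ± 0.21, and -0.0052 after median-ratio scaling). Plasma cell genes were called higher in 1 of 5, Kupffer cell and macrophage genes in 3 of 12, neutrophil genes in 4 of 8, dendritic cell genes in 2 of 8 and platelet genes in 4 of 4, with 0 lower in each of these lists by limma or by voom in the deposited values. After median-ratio scaling the higher calls in these lists were 1 of 5, 2 of 12, 3 of 8, 1 of 8 and 4 of 4, in the same order, beside 7.77% of all genes tested. With this scaling the dendritic list held 1 lower call, that of Bst2, named after its value was seen, at -1.35 (adjusted p = 0.000378, and -0.94 in the deposited values). Monocyte genes held 1 higher and 1 lower call among 7, the latter Ly6c2, the antigen of inflammatory monocytes, which fell by 1.37 ± 0.23 (adjusted p = 0.000388). After median-ratio scaling the monocyte list held 0 higher calls and 1 lower call. None of 7 erythroid genes was called by limma or voom, with 0 at an unadjusted p under 0.05 in the deposited values and 2 lower after median-ratio scaling. Their summed level was 1534 to 3431 RPKM and 1071 to 3924 RPKM. Hba-a1 and Hba-a2, Hbb-b1 and Hbb-bs, and Hbb-b2 and Hbb-bt had nearly the same reads. These pairs are therefore not separate measurements, and the sum may count their reads more than once. Hepatocyte genes were called higher in 3 of 9, and in 0 of 9 after median-ratio scaling, where 1 was lower. The part of these other cells in the values of the T and NK cell genes was not tested.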

How the data were processed

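Total RNA of the liver was depleted of ribosomal RNA and sequenced for 5 AdCMV and 5 AdVEGF mice, grouped by their labels. The authors mapped the reads with TopHat (version 2.0.7) and deposited RPKM values for 24016 transcripts in each mouse, scaled by nothing but the mapped tags of the library; the submitters' processing notes name HOMER and mm9. The counting settings are not given in the sources used here. The authors' own log fold changes and FDR of each transcript were deposited too and were not used. The 5 transcripts without a symbol held at most 0.00534% of a library's reads and stayed out of the tests.

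The 37 genes, the other lists, the 9 ratios and the tests were chosen with earlier results of these data known. The RPKM in every mouse is given for each of the 37 genes that was tested, the reads in every mouse for the others, and from the other lists at most the 4 called genes with the largest change plus a few partners of the 37. limma (version 3.58.1, R 4.3.3; lmFit, eBayes with trend) was run on log2(RPKM + 0.1) over the 13933 transcripts whose mean passed 0.5 RPKM in either group. Reads were recovered from the steps of the RPKM values; at least 99.986% of values under 1000 reads were whole within 0.1 read, and ratios of reads carry exact 95% intervals for counting error only. Libraries of a group differed by at least 12.4 times the counting variance, so none repeats another. The labels do not say that mice of the same replicate number were paired, and the main fit treated them as unpaired. Python 3.11.15, numpy 2.4.6, pandas 2.3.3 and matplotlib 3.10.9 were used. Alternatives were other scalings, filters and pseudocounts, treat, voom, the replicate block and leaving out each mouse. Promoter windows came from RefSeq on GRCm38.p6, and no coordinates were converted between builds.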

Additional observations from a re-analysis of the deposited data

Results flagged for a closer look

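In 3 cases 1 mouse stood apart from the other 4 of its group, judged on log2(RPKM + 0.1) by the gap to its nearest neighbour relative to the range of the group. Cd3e was at 0.208 RPKM in AdVEGF mouse 5, where the next lowest mouse of the group had 0.749 RPKM. Cd5 was at 0.06 RPKM in AdVEGF mouse 4, where the next had 0.26 RPKM. Nkg7 was at 2.37 RPKM in AdCMV mouse 4, where the next had 6.43 RPKM. These came from 52 groups of 5 mice over 26 genes, and chance flags about 1 group in 20. Without the mouse in question, Cd3e and Nkg7 were still called lower in the AdVEGF group and Cd5 was still not called.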

How the results depend on the processing

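Beside the 10 of the 37 genes called lower and 0 higher, library totals without the Mup genes gave 17, voom with median-ratio scaling 16, a mean over 0.5 RPKM over all libraries 5, a filter at 1 RPKM 5, a pseudocount of 1 RPKM 2 (Gzmb and Nkg7) and treat, which tests against the fold of the call, 0; none of these called any of them higher. The totals without the Mup genes subtract Mup reads, some of which may be counted more than once. Leaving out 1 mouse gave 7 to 11. Cd3e, Gzmb, Gzmk, Ifng, Nkg7, Pdcd1 and Prf1 were called in all 10 such fits. Cd3g lost its call in 6 (adjusted p up to 0.0704), Cd8a in 5 (up to 0.0733) and Cd6 in 3 (up to 0.0877), and Cd2 and Cd5 were called without AdCMV mouse 4. Without AdCMV mice 3 and 4, an alternative chosen after seeing the data, 10 were called. The median log2 fold change of the 37 genes ranged from -0.67 to -0.34 when 1 mouse was left out.

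Over all genes tested, 214 were called lower and 1808 higher. The counts were 438 and 1082 with median-ratio scaling, 393 and 1125 with upper quartile scaling, 558 and 973 without the Mup genes, 477 and 1135 with voom and median-ratio scaling, 36 and 503 with treat, and 444 and 1180 with median-ratio scaling and no filter, the last chosen after seeing the data; a pseudocount of 1 RPKM left 954 higher. Leaving out 1 mouse gave 179 to 218 lower and 1428 to 2359 higher.

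Genes without a call changed sign with the scaling. With median-ratio scaling, upper quartile scaling, totals without the Mup genes and voom with median-ratio scaling, the log2 fold change was -0.19, -0.15, -0.29 and -0.22 for Cd247, -0.18, -0.14, -0.28 and -0.15 for Zap70, and -0.19, -0.15, -0.29 and -0.19 for Eomes. Icos was at 0.014 with a pseudocount of 1 RPKM. With 1 mouse left out, the range was -0.19 to 0.24 for Icos, -0.22 to 0.018 for Cd8b1, -0.36 to 0.070 for Lag3, -0.29 to 0.097 for Klrd1 and -0.031 to 0.39 for Eomes.

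The ratio of Gzma to Gzmb differed by 1.44 to 1.95 with 1 mouse left out. It lost its call in 7 of these 10 tests (exact permutation test, adjusted p = 0.0571). The smallest p that this test can reach is 0.00794 for 4 mice against 5, the same as for 5 against 5. Gzmb per Cd8a differed by -0.72 with a pseudocount of 1 RPKM (exact permutation test, adjusted p = 0.0357), by -0.85 with median-ratio scaling before the pseudocount, chosen after seeing the data, and by -1.02 to -0.65 with 1 mouse left out, passing without AdVEGF mouse 3; that scaling changed no call of the other 8 ratios. Il2rb per Il2rg differed by -0.53 to -0.30, passing without AdCMV mouse 4. With the replicate number as a replicate block, 10 of the 37 genes were called lower as before, and of all genes 256 were called lower and 1933 higher. The correlation of same-numbered mice ranged from 0.00763 to 0.291. AdCMV mice 1, 4 and 5 correlated best with the AdVEGF mouse of the same number, and AdCMV mice 2 and 3 with another. Whether mice of the same number shared a batch cannot be told from this. The causes were not tested. At the depth of these libraries, genes under about 0.5 RPKM rest on a few reads per mouse.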
